A study of Homo sapiens with 6 samples.

Results

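Transcripts of 8 protein kinase C isoforms were followed in MDA-MB-231 cells treated with EC-70124, and 3 of them, PRKCA, PRKCD and PRKCE, were down-regulated. The isoforms (PRKCA, PRKCB, PRKCD, PRKCE, PRKCH, PRKCI, PRKCQ and PRKCZ) were matched by gene symbol in the probe annotation, since the drug belongs to a class that inhibits these kinases. All 8 of the 8 listed genes were measured, among 18417 genes with a probe set of their own, and each isoform has 1 such probe set.

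MDA-MB-231 is an established human triple negative breast cancer line with a mesenchymal appearance. In the EC-70124 group, cells received the drug at 500 nM during 24 h (3 samples), and the control group was the same line labelled as control (3 samples), with no vehicle named for it. Neither group carries a genetic change made for the experiment. Each sample, called independent in the study's methods, was hybridised to 1 Affymetrix Human Gene ST array, and all values stem from a single cell line. Treatment was at a single dose and time, and the labels state no time for the control samples. The drug is an indolocarbazole that inhibits several kinases and is related to staurosporine.

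Protein kinase C enzymes are serine/threonine kinases that carry signals from receptors at the cell membrane. Conventional isoforms (alpha and beta here) need calcium and the lipid diacylglycerol, calcium-independent isoforms (delta, epsilon, eta and theta) need diacylglycerol alone, and atypical isoforms (iota and zeta) respond to neither and act in polarity complexes. Staurosporine, the parent of the drug class, is a classical inhibitor of these enzymes that competes with ATP. The arrays measure transcripts, so that kinase activity and protein level are outside these data.

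Levels are array intensities, linear and not log, as deposited. The median over the 33252 probe sets was between 450.7 and 460.1 in the EC-70124 arrays and between 437 and 444 in the control arrays. Of the 5 markers listed for the labelled line (VIM, CD44, FN1, ANXA1 and MSN), 5 lay above the array median on every array, whereas ESR1 averaged 208 in EC-70124 samples and 225 in control samples, and PGR 158 and 166. The other markers listed as low or absent were ERBB2 (1515 in EC-70124 samples and 1486 in control samples, above the array median on every array), EPCAM (416 and 381) and CDH1 (178 and 156), of which CDH1 passed as higher with the drug (log2 fold change 0.19, limma adjusted p = 0.049). Of the 5 markers of the line CD44 (log2 fold change, EC-70124 minus control, -0.29), FN1 (-1.10) and MSN (-0.66) were themselves down-regulated, and the sum of all 5 ran from 47484 to 48385 in EC-70124 arrays and from 57703 to 59150 in control arrays; the part of this in the results below was not tested. Over all genes, 2722 were down-regulated and 3631 were up-regulated by EC-70124 at an adjusted p under 0.05 from limma's moderated test, which is a share of 14.8% and of 19.7%. After quantile normalization of the same arrays these counts were 3527 and 3112, so that the share of up-regulated genes among those called went to 46.9%, against 57.2% before. Changes are given below as log2 fold change, EC-70124 minus control, where a value of -1 would be a halving.

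Of the 8 isoforms 3 were down-regulated and 0 were up-regulated, a called share of 37.5%. Over all genes 14.8% were down-regulated and 34.5% passed in either direction. The family's count is small and no test of the list was made. All 8 of the 8 log2 fold changes were negative, as were 51.0% of those over all genes. The isoforms ran from -0.58 for PRKCA to -0.10 for PRKCH, with a median of -0.15, whereas the median over all genes was 0.00. The EC-70124 and control intensities did not overlap for 4 isoforms, PRKCA, PRKCD, PRKCE and PRKCH, each with the drug below. Over all genes 22.0% had such separate ranges with the drug below, 25.6% had them with the drug above, and 47.6% in either direction.

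The promoters of the down-regulated isoforms are given because these were the transcripts that passed the test. The windows hold the 250 bases before the start site (RefSeq, GRCh38.p14, the most upstream start where a gene has several; PRKCD has 3 starts in the table), written 5′ to 3′ on the plus strand, on which all of these genes lie. They are chr17:66302363-66302612 for PRKCA, chr3:53160959-53161208 for PRKCD and chr2:45651425-45651674 for PRKCE. Capitals mark the GC box, GGGCGG on either strand, a sequence bound by SP1-type factors.
PRKCA: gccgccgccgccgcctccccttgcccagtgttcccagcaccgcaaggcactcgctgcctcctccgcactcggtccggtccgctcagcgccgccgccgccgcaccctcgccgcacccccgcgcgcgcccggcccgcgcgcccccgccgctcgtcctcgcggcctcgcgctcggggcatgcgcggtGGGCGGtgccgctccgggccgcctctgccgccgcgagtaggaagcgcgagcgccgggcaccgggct
PRKCD: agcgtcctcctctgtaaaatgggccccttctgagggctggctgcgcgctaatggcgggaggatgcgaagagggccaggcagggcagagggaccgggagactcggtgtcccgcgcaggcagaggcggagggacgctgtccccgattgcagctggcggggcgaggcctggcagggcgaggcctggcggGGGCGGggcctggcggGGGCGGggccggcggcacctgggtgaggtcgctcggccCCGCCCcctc
PRKCE: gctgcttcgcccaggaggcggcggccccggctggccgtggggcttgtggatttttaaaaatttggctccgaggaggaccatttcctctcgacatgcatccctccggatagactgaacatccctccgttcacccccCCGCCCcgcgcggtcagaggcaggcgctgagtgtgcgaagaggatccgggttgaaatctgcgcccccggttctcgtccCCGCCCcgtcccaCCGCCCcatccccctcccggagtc
The GC box occurs 1 time in the window of PRKCA and 3 times each in those of PRKCD and PRKCE, and it occurs at least once in 42.6% of 35114 promoter windows of this length. It is also found in the windows of PRKCB (2), PRKCH (1), PRKCI (1) and PRKCZ (7), isoforms that did not pass the test, and not in that of PRKCQ. For PRKCZ, which has 4 starts, only the window of the most upstream start was searched. GC content was 82.0% for PRKCA, 75.2% for PRKCD and 66.4% for PRKCE, against a median of 58.0% over all windows. Among isoforms that did not pass, it was 77.2% for PRKCB, 75.2% for PRKCH, 58.0% for PRKCI and 79.6% for PRKCZ. A high GC content was thus not particular to the down-regulated isoforms. The window of PRKCQ (GC content 49.2%) holds 1 TATA box (TATAAA, in 10.7% of all windows) and 1 CCAAT box (CCAAT, in 32.0%), and that of PRKCZ holds 5 CCAAT boxes. The letters of the AP-1 element (TGANTCA, in 6.57% of all windows), of the cyclic AMP response element (TGACGTCA, in 1.65%) and of the E-box (CACGTG, in 6.35%) are in none of the 8 windows. All motifs were searched on both strands. These are matches of letters and say nothing of whether a factor binds.

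**Figure D1:**
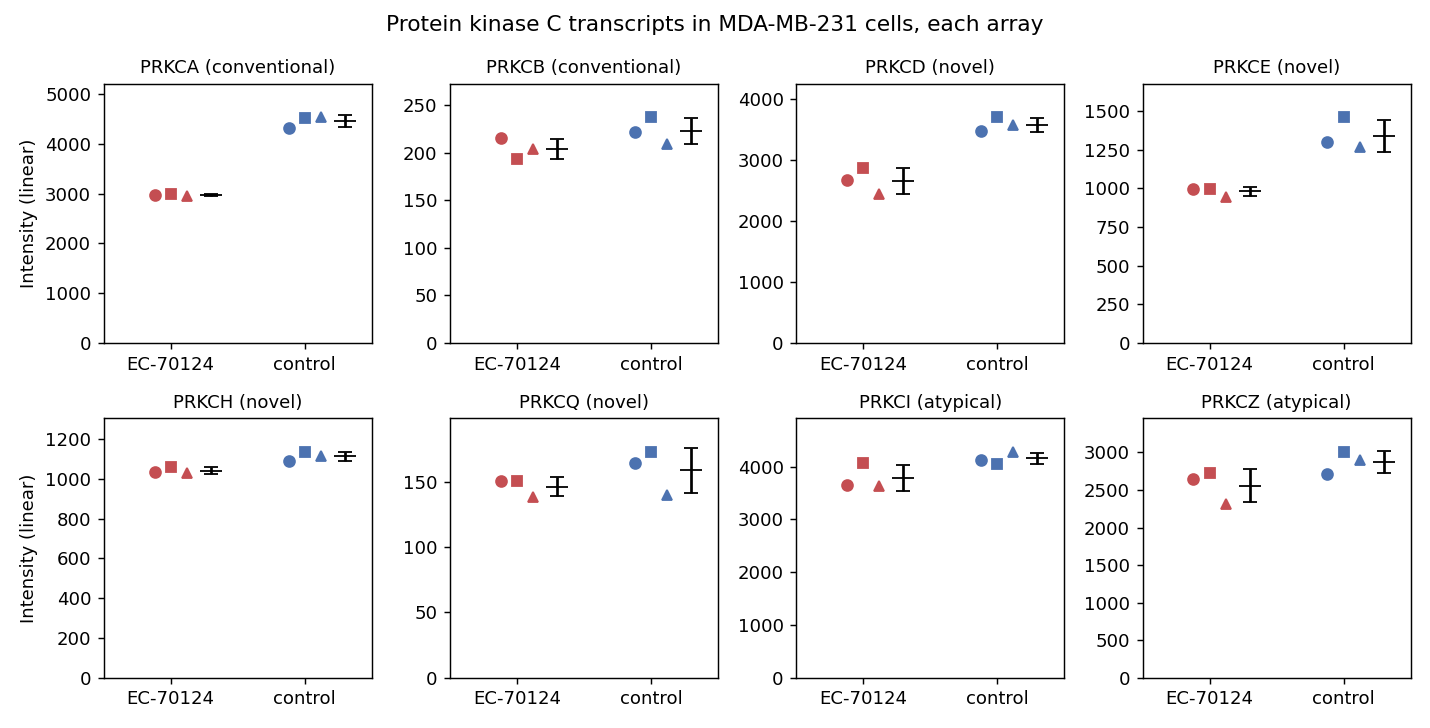
Intensity (linear scale, y axis starting at 0) of the 8 protein kinase C transcripts in each EC-70124 array (red) and each control array (blue); circles, squares and triangles are replicates 1, 2 and 3, and the black bar is the mean with its SD (n = 3). The 3 EC-70124 values of PRKCA sit between 2949.9 and 2989, below the lowest control value of 4311.

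PRKCA, the conventional isoform alpha, had the largest change of the family. Its intensities were 2979, 2989 and 2949.9 in EC-70124 replicates 1, 2 and 3, against 4311, 4522 and 4529 in control replicates 1, 2 and 3. All EC-70124 arrays were thus low and close together, and all control arrays high. The means were 2973 ± 20.3 with EC-70124 and 4454 ± 124 in control samples (SD, n = 3 each). The log2 fold change was -0.58 (standard error, SE, 0.05, limma adjusted p = 8.5e-05), which is a transcript level 33.2% lower. Of all genes, 3.32% had a lower log2 fold change. The call also held in each alternative run, with log2 fold changes of -0.63 to -0.57 and adjusted p of 4.0e-06 to 0.0158 from limma or the methods' t-test.

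PRKCD encodes the calcium-independent isoform delta, which is known for roles in apoptosis and DNA damage responses. Its intensities were 2671, 2863 and 2433 in EC-70124 replicates 1, 2 and 3, against 3463, 3692 and 3562 in control replicates 1, 2 and 3. The ranges did not overlap, and EC-70124 replicate 3 was the lowest array. Means were 2656 ± 215 with EC-70124 and 3572 ± 115 in control samples (SD, n = 3 each), and the log2 fold change was -0.43 (SE 0.07, limma adjusted p = 0.00203), or 25.8% lower. PRKCE, the calcium-independent isoform epsilon, an oncogenic kinase in several tumour models, had intensities of 999.7, 996 and 948 in EC-70124 replicates 1, 2 and 3, against 1299, 1460 and 1268 in control replicates 1, 2 and 3. All EC-70124 arrays lay below all control arrays, and control replicate 2 was the highest. Means were 981 ± 29.0 with EC-70124 and 1342 ± 103 in control samples (SD, n = 3 each), and the log2 fold change was -0.45 (SE 0.07, limma adjusted p = 0.00132), or 26.8% lower. Both calls were lost with the methods' t-test, which estimates the spread of each gene from its own 6 values (adjusted p = 0.0658 for PRKCD and 0.0547 for PRKCE).

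The other isoforms missed the threshold. PRKCH, the calcium-independent isoform eta, found mainly in epithelia, had intensities of 1033, 1062 and 1030.4 in EC-70124 replicates 1, 2 and 3, against 1090.2, 1135 and 1115 in control replicates 1, 2 and 3. The ranges were separate but the distance between them was small. The log2 fold change was -0.10 (95% interval -0.21 to 0.02, limma adjusted p = 0.200). After quantile normalization it was -0.19 (limma adjusted p = 0.0195), so that the call for PRKCH depended on the normalization.

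PRKCI and PRKCZ encode the atypical isoforms iota and zeta. PRKCI, an oncogene of the 3q amplicon in other tumours, had intensities of 3652, 4075 and 3631 in EC-70124 replicates 1, 2 and 3, against 4132, 4058 and 4274 in control replicates 1, 2 and 3. EC-70124 replicate 2 lay within the control range. Its log2 fold change was -0.14 (95% interval -0.28 to 0.01, limma adjusted p = 0.149). PRKCZ had intensities of 2643, 2724 and 2309 in EC-70124 replicates 1, 2 and 3, against 2712, 3003 and 2902 in control replicates 1, 2 and 3. The groups overlapped, with EC-70124 replicate 2 above control replicate 1. Its log2 fold change was -0.17 (95% interval -0.35 to 0.01, limma adjusted p = 0.138), and -0.23 after quantile normalization, where it passed (limma adjusted p = 0.0434). Without EC-70124 replicate 3 it was -0.10 (limma adjusted p = 0.272). A missed threshold does not show that the atypical isoforms were unaffected.

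PRKCB and PRKCQ, the beta and theta isoforms, are known best from B and T lymphocytes and were dim in these cells. PRKCB had intensities of 215, 193 and 203 in EC-70124 replicates 1, 2 and 3, against 221, 237 and 209 in control replicates 1, 2 and 3. PRKCQ had intensities of 151, 151 and 138 in EC-70124 replicates 1, 2 and 3, against 165, 173 and 140.0 in control replicates 1, 2 and 3. In both cases the groups overlapped. The log2 fold changes were -0.13 for PRKCB (95% interval -0.28 to 0.03, limma adjusted p = 0.207) and -0.12 for PRKCQ (95% interval -0.32 to 0.09, limma adjusted p = 0.364). For PRKCQ the value was -0.05 without control replicate 2 and -0.21 without control replicate 3, and it passed in neither fit. Only 31.5% of all probe sets were dimmer than that of PRKCB and 22.2% dimmer than that of PRKCQ, and since the table holds no measure of background, it cannot be said whether either transcript was present. Among leukocyte markers, PTPRC averaged 96.5 in EC-70124 samples and 95.1 in control samples, and CD3E 189 and 212. The summed intensity of the 9 measured leukocyte markers ran from 2743 to 2868 in EC-70124 arrays and from 2526 to 2732 in control arrays, so that the sums did not overlap and were higher with the drug. Of the 9, however, 5 had a negative log2 fold change, and the median over the 9 was -0.01. None of these 9 passed with limma or the methods' t-test, and 2 had an unadjusted p under 0.05 in limma, both with higher means with the drug. These were CD79A, with means of 742 in EC-70124 samples and 646 in control samples, and ITGAM, with means of 672 and 563. Over all 18417 genes, 34.5% passed with limma, and 4313 had an unadjusted p under 0.05 with a positive and 3526 with a negative log2 fold change. No leukocyte marker was at the floor of 1, since even the dimmest had a mean of 95.8.

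**Figure D2:**
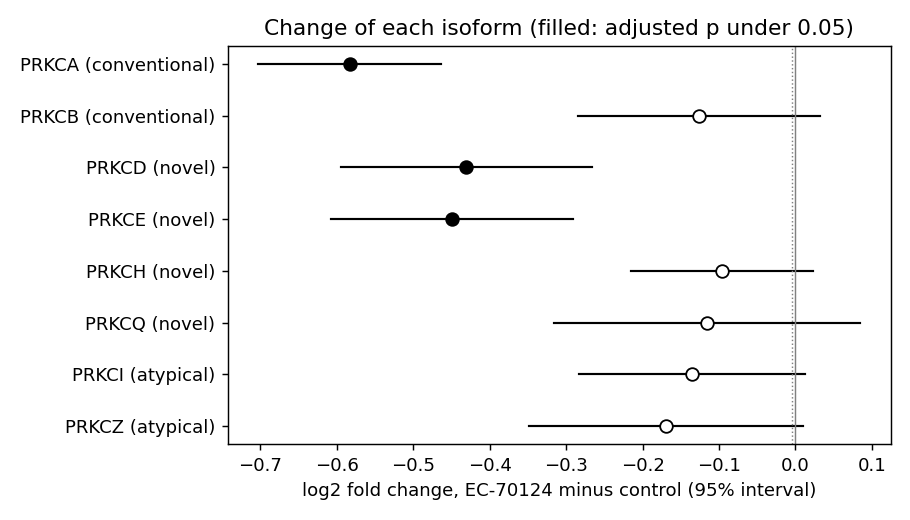
Log2 fold change (EC-70124 minus control, x axis) of each isoform (y axis) with its 95% interval from limma, 3 arrays per group; filled points have an adjusted p under 0.05 and the dotted line is the median over all genes. PRKCA (-0.58), PRKCE (-0.45) and PRKCD (-0.43) stand apart from 0, and the other 5 intervals include it.

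By class, 1 of the 2 conventional isoforms, 2 of the 4 that need diacylglycerol alone and neither of the 2 atypical isoforms passed the test. Over all genes 14.8% passed as lower and 34.5% in either direction, and the classes are small. Both atypical isoforms also had an unadjusted p above 0.05 in limma and missed the threshold in the methods' t-test. Whether the classes differ was not tested. The intervals of PRKCA (-0.70 to -0.46) and PRKCI (-0.28 to 0.01) do not overlap, nor do those of PRKCA and PRKCZ (-0.35 to 0.01). The interval of PRKCE (-0.61 to -0.29) does not overlap that of PRKCI but overlaps that of PRKCZ, and the interval of PRKCD (-0.60 to -0.27) overlaps with both. Such gaps were not particular to the atypical class. The interval of PRKCH (-0.21 to 0.02) overlaps none of those of PRKCA, PRKCD and PRKCE. That of PRKCB (-0.28 to 0.03) overlaps that of PRKCD only, and that of PRKCQ (-0.32 to 0.09) those of PRKCD and PRKCE. Levels were not set against each other between isoforms, since each probe set has its own response.

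**Figure D3:**
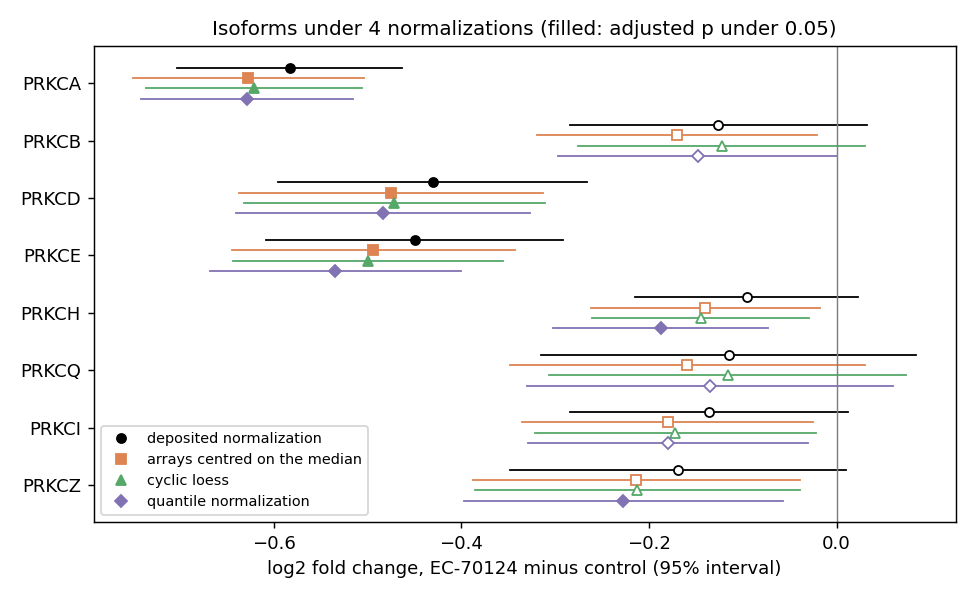
Log2 fold change (EC-70124 minus control, x axis) with its 95% interval for each isoform (y axis) under the deposited normalization and with the arrays additionally centred on their median, adjusted by cyclic loess or quantile normalized; filled points have an adjusted p under 0.05. All values are negative under each of the 4 settings, and PRKCH (-0.19) and PRKCZ (-0.23) pass with quantile normalization.

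The plot of the isoforms under other normalizations shows that each further step lowered most values. The median over all genes also went down, by 0.04 with quantile normalization or median centring and by 0.02 with cyclic loess. Isoforms did not all move by that amount, and PRKCH went from -0.10 to -0.19 with quantile normalization. With median centring neither PRKCH (-0.14, limma adjusted p = 0.0743) nor PRKCZ (-0.21, limma adjusted p = 0.0590) passed. PRKCA was at -0.63, -0.63 and -0.62 with quantile normalization, median centring and cyclic loess. PRKCD was at -0.48, -0.47 and -0.47 and PRKCE at -0.53, -0.49 and -0.50 in the same order. These isoforms passed under all 4 settings shown.

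Genes around the isoforms were taken from 9 lists of textbook pathway members. Of 78 measured genes in them, 19 were down-regulated and 10 were up-regulated, together 37.2%, against 34.5% of all genes. By direction, 24.4% were lower, against 14.8% of all genes, and 12.8% were higher, against 19.7%, and no test of these shares was made. The counts of single lists below stand beside the same shares of all genes and were not tested either. A further 8 listed genes were not analysed here. Among the enzymes that make diacylglycerol, 3 of 12 phospholipase C genes passed, all lower with the drug. PLCE1, a phospholipase C regulated by Ras, had intensities of 1017, 1031 and 883 in EC-70124 replicates 1, 2 and 3, against 1535, 1582 and 1516 in control replicates 1, 2 and 3, a log2 fold change of -0.66 (SE 0.07, limma adjusted p = 2.2e-04). PLCB1, coupled to Gq proteins, had a log2 fold change of -0.38 and PLCH2 of -0.25. The call for PLCB1 was lost without control replicate 2 (limma adjusted p = 0.0533).

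Of 10 diacylglycerol kinase genes, whose products remove this lipid, none passed with limma or the methods' t-test, and 0 had an unadjusted p under 0.05 in limma. Over all 18417 genes, 34.5% passed with limma, and 4313 had such an unadjusted p with a positive and 3526 with a negative log2 fold change. DGKA had the lowest p of this list. Its intensities were 1815, 1863 and 1209 in EC-70124 replicates 1, 2 and 3, against 2022, 2033 and 1957 in control replicates 1, 2 and 3. EC-70124 replicate 3 stood apart, the ranges were separate, and the log2 fold change of -0.33 (limma adjusted p = 0.144) became -0.12 without it. Of the 3 inositol trisphosphate receptors, the calcium channels opened by the other product of phospholipase C, ITPR1 and ITPR2 were down-regulated. ITPR1 had intensities of 778, 759.8 and 796 in EC-70124 replicates 1, 2 and 3, against 1243, 1243 and 1114 in control replicates 1, 2 and 3, with separate ranges and a log2 fold change of -0.62 (SE 0.06, limma adjusted p = 1.6e-04). ITPR2 had a log2 fold change of -0.29, and ITPR3, which did not pass, of -0.01.

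Protein kinase C matures by phosphorylation through PDPK1 and the mTORC2 complex and is dephosphorylated by PHLPP phosphatases. Of 10 measured genes of this list, 4 were down-regulated and 3 were up-regulated, together 70%, against 34.5% of all genes. PHLPP1 had intensities of 610.2, 618 and 582 in EC-70124 replicates 1, 2 and 3, against 1014, 974 and 961 in control replicates 1, 2 and 3. The log2 fold change was -0.70 (SE 0.05, limma adjusted p = 4.6e-05), with -0.17 on a second, much dimmer probe set that did not pass (means of 37.0 with EC-70124 and 42.1 in control samples). RICTOR and MAPKAP1, subunits that define mTORC2, had log2 fold changes of -0.37 and -0.44. MAPKAP1 had intensities of 2545, 2449.7 and 2991 in EC-70124 replicates 1, 2 and 3, against 3578, 3605 and 3617 in control replicates 1, 2 and 3, with EC-70124 replicate 3 nearest to the controls. MLST8, a subunit that mTORC2 shares with mTORC1, was up-regulated (log2 fold change 0.32), as were the phosphatase genes PHLPP2 (0.21) and PPP2CA (0.20), whereas PDPK1 (0.14) and MTOR (0.00) did not pass.

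Of 5 related kinases measured, PRKD1, a kinase activated by diacylglycerol-dependent isoforms, was the one that passed (log2 fold change -0.27, limma adjusted p = 0.0304), with intensities of 156, 145 and 164 in EC-70124 replicates 1, 2 and 3, against 183, 174 and 207 in control replicates 1, 2 and 3. This dim gene lost its call when EC-70124 replicate 1 or 2 or control replicate 1 or 3 was left out (adjusted p of 0.0646, 0.103, 0.0687 and 0.0879 from limma). Of 11 polarity and scaffold partners of the atypical isoforms, 4 were down-regulated and 1 was up-regulated, together 45.5%, against 34.5% of all genes. SQSTM1, the autophagy receptor p62 that binds atypical isoforms, had intensities of 9360.1, 9195 and 8908 in EC-70124 replicates 1, 2 and 3, against 6455, 6735 and 6774 in control replicates 1, 2 and 3, a log2 fold change of 0.46 (SE 0.05, limma adjusted p = 3.2e-04). All EC-70124 arrays were above all control arrays. MAP2K5, a kinase of the ERK5 cascade that binds atypical isoforms, had a log2 fold change of -0.33, and the polarity genes LLGL1 and LLGL2 of -0.26 and -0.22. The call for LLGL1 was lost without EC-70124 replicate 2 (limma adjusted p = 0.0522). That for LLGL2 was lost without EC-70124 replicate 1 or 3 or control replicate 1 or 2 (adjusted p of 0.0666, 0.0622, 0.0717 and 0.106 from limma).

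The largest changes in these lists were rises of RASGRP1 and RASGRP3, whose products have a C1 domain, the module that binds diacylglycerol and phorbol ester. Their list was drawn up by gene family, and not every member, UNC13D among them, has this domain. Among its 9 measured genes 3 rose and 1 fell, together 44.4%, against 34.5% of all genes. RASGRP1, a diacylglycerol-dependent activator of Ras known best from T cells, had intensities of 911, 811 and 563 in EC-70124 replicates 1, 2 and 3, against 179.8, 182 and 158 in control replicates 1, 2 and 3. The ranges were far apart, with a log2 fold change of 2.11 (SE 0.16, limma adjusted p = 4.4e-05), a ratio of 4.32. RASGRP3, a related activator of Ras and Rap, had intensities of 176, 174 and 225 in EC-70124 replicates 1, 2 and 3, against 84.0, 90.5 and 94.5 in control replicates 1, 2 and 3. Its log2 fold change was 1.08 (SE 0.11, limma adjusted p = 1.3e-04), and 0.78 with an offset of 50 before log2, which damps dim genes. The summed leukocyte markers, given above, were also higher in the EC-70124 arrays, although 5 of the 9 had a negative log2 fold change. Their part in these changes was not tested. As for PRKCB, it cannot be said whether the RASGRP1 or RASGRP3 transcript was present in control samples, and the folds are ratios of array intensities. UNC13D, a vesicle priming factor, had a log2 fold change of 0.33 and its relative UNC13B of -0.38.

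Of 14 substrates and anchoring proteins, 4 were down-regulated and 1 was up-regulated, together 35.7%, against 34.5% of all genes. AKAP12, a scaffold and substrate of protein kinase C also called gravin, had intensities of 4873, 4909 and 4889.7 in EC-70124 replicates 1, 2 and 3, against 6979, 6963 and 6899 in control replicates 1, 2 and 3. The arrays of each group were nearly equal, and the log2 fold change was -0.51 (SE 0.05, limma adjusted p = 1.3e-04). CAVIN2, a caveolar protein that binds protein kinase C, had a log2 fold change of -0.67 and ADD2, a membrane skeleton substrate, of -0.56, whereas CAVIN3, which binds the delta isoform, was up-regulated (0.33). MARCKS, the best known substrate, did not pass (-0.18, limma adjusted p = 0.208). In the CARD-BCL10-MALT1 complex, which links protein kinase C to NF-kappa-B in lymphocytes, MALT1 (log2 fold change 0.39) and BCL10 (0.32) were up-regulated, and the other 2 measured members, CARD10 (0.07) and CARD14 (-0.17), did not pass. Of the 24 list genes that passed and were named by size of change (PHLPP2 and PPP2CA, named besides, are not among them), 10 lost their call with the methods' t-test: PRKD1, PLCB1, MAPKAP1, RICTOR, MAP2K5, LLGL1, LLGL2, UNC13B, CAVIN2 and BCL10.

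**Figure D4:**
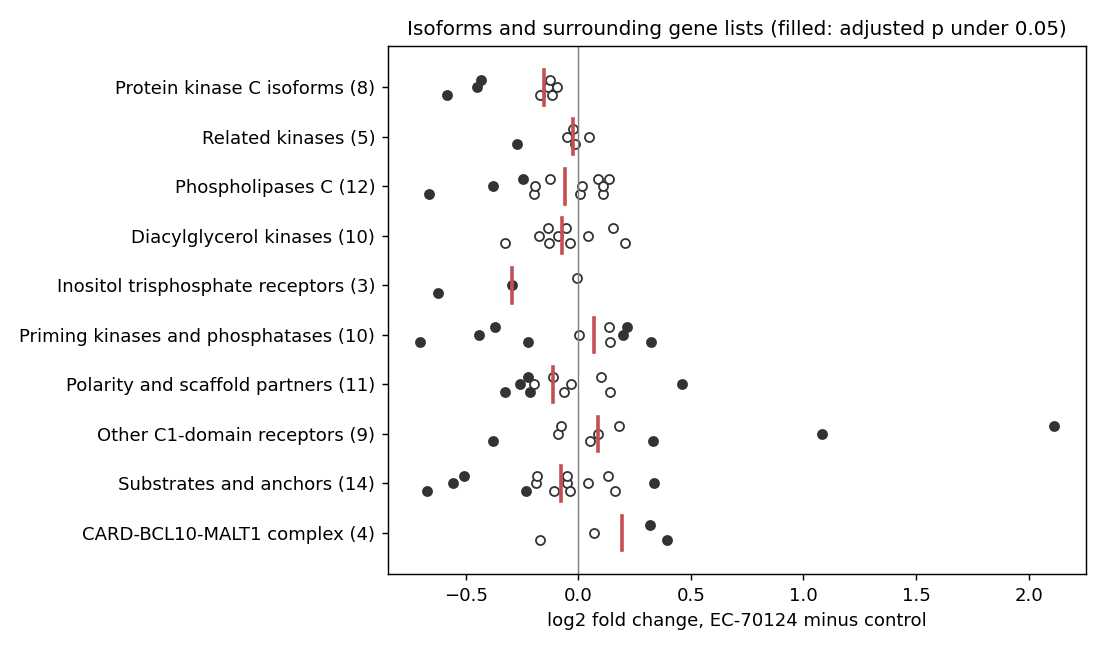
Log2 fold change (EC-70124 minus control, x axis) of the 8 isoforms and of each measured member of the 9 surrounding lists (y axis, number of genes in parentheses); filled points have an adjusted p under 0.05 from limma, the red bar is the median, and points are spread vertically for legibility. RASGRP1 (2.11) and RASGRP3 (1.08) lie far to the right, and PHLPP1 (-0.70) is the lowest.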

How the data were processed

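Total RNA of 3 EC-70124 and 3 control samples was labelled and hybridised to Affymetrix Human Gene ST arrays. The authors used dChip to bring the arrays to a common scale by rank invariant normalization and to summarise probes by its expression index, and deposited the resulting intensity of each probe set. The background correction and the version of dChip are not given in the sources used, and the table holds no depth or background, so that the number of arrays limits the precision.

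Deposited intensities below 1 were raised to that floor before log2. Of 33252 probe sets, 19460 have 1 gene symbol in the platform annotation, 1754 have several and 12038 have none. The brightest single-symbol probe set stood for each of 18417 genes. Groups were compared with lmFit and eBayes of limma 3.58.1 (R 4.3.3), 2-sided, with Benjamini-Hochberg adjustment over all genes at 0.05. With 3 samples a group, the smallest exact permutation p is 0.1. The code was tested on simulated data.

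The isoforms, lists and alternatives were chosen with earlier results of these data known. Named genes are all isoforms and, per list, up to 4 that passed, taken by size of change, or where none passed the one with the lowest p. ITPR3, PDPK1, MTOR, PHLPP2, PPP2CA, MARCKS, CARD10 and CARD14 were named after their values were seen. Promoter sequences come from RefSeq (GRCh38.p14), and 8 of 8 isoforms matched by symbol. Alternatives were 3 further normalizations, a filter on the dimmest 30% of genes, adding 50 before log2, the median over probe sets, an intensity trend, the methods' t-test (named there as a scoring metric for gene sets, with no threshold for genes), the replicate number as a block and leaving out each sample.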

Additional observations from a re-analysis of the deposited data

How the results depend on the processing

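Over 15 alternatives the 8 isoforms kept a negative log2 fold change in every fit that held them. PRKCB and PRKCQ were removed by the filter on the 30% dimmest genes and have 14. The count of down-regulated isoforms, 3, became 5 with quantile normalization, where PRKCH (log2 fold change -0.19, limma adjusted p = 0.0195) and PRKCZ (-0.23, adjusted p = 0.0434) passed. It became 1 with the methods' t-test, where PRKCD (-0.43, adjusted p = 0.0658) and PRKCE (-0.45, adjusted p = 0.0547) did not pass. That test called 1280 genes lower and 1962 higher over all genes, and 8 list genes lower, against 2722, 3631 and 19 with limma. Leaving out each sample in turn gave 3 down-regulated isoforms in each of 6 fits, with log2 fold changes of -0.61 to -0.57 for PRKCA, -0.49 to -0.37 for PRKCD and -0.49 to -0.39 for PRKCE. All genes had 2133 to 2947 lower and 2991 to 3888 higher in these fits. With the replicate number as a block, 3 isoforms, 2662 genes over all lower and 3521 higher were called, and none of the isoforms or of the 24 list genes that passed and were named by size of change lost its call (PHLPP2 and PPP2CA were not followed over the alternatives). Deviations from the group means of samples that share a number correlated at 0.13, -0.02 and 0.14 for numbers 1, 2 and 3, across genes. Of the 3 EC-70124 samples, 1 correlated best with its own number. No clear pairing by number was thus seen, but 3 samples a group cannot exclude it. No measure of signal over background was at hand for the dim isoforms.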
